A study of Rattus norvegicus with 6 samples.

Results

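Expression of 10 genes of eicosanoid synthesis and breakdown was followed in rat lung: Ptgs1, Ptgs2, Ptgis, Tbxas1, Ptges, Ptgds, Hpgd, Alox5, Ltc4s and Alox15. They were chosen by gene symbol, and all 10 were found once among the 40995 genes of the count table. Lung tissue came from wild-type (WT) rats on a Sprague-Dawley background and from untreated rats of a single line, crTMPRSS2 (KO), made by CRISPR/Cas9 editing of Tmprss2, a membrane serine protease gene. Each genotype had 3 rats, which the labels call biological replicates. The labels name no age, sex, litter or edited bases, and no library received a treatment. The question was which of these genes differed in messenger RNA between the genotypes, and the p-values measure only the spread between these few animals of 1 line.

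Prostanoids are made from arachidonic acid, which phospholipases free from membranes. Cyclooxygenases turn it into an unstable endoperoxide, and a separate synthase then makes each product: prostacyclin, thromboxane, or prostaglandins D and E. Leukotrienes come from the same acid through Alox5. In the lung, prostacyclin relaxes vessels, thromboxane and the cysteinyl leukotrienes constrict vessels and airways, and the vascular bed removes prostaglandins from blood by uptake through Slco2a1 and oxidation by Hpgd.

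Total counts were 29933359 to 36895162 per library. WT replicate 1 stood apart: its log2 CPM (counts scaled to 1e+06 per library by TMM) correlated at 0.936 to 0.948 with the other libraries across genes. Its summed FPKM (the authors' counts per gene length and library size) of 10 skeletal muscle markers was 6932 against 18.8 to 42.3 elsewhere, and of 10 squamous epithelial markers 2165 against 3.78 to 9.12. Every comparison was therefore made with all 6 libraries and again with 5, without WT replicate 1. The lung label was matched by type 2 alveolar markers, led by Sftpc at 9304 to 17439 FPKM. Tmprss2 stood at 50.4, 61.9 and 65.6 CPM in WT and at 46.0, 56.3 and 46.9 CPM in KO, so the groups overlapped (edgeR log2 fold change -0.25, SE 0.14, adjusted p = 0.508). Without WT replicate 1 they did not overlap (-0.36, SE 0.090, adjusted p = 0.0589). A gene total need not fall after an edit, and here it does not check the genotype labels.

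Few of the 10 genes were told apart between the genotypes: Ptgis and Alox15 were called lower in KO once WT replicate 1 was left out, and the groups overlapped for 6 genes. In both comparisons 9 of 10 edgeR log2 fold changes were below 0, with Hpgd, the gene of prostaglandin breakdown, as the exception. Their median was -0.50 with 6 libraries, where 9286 of 18464 tested genes were below 0 and the median of all was -0.0029. It was -0.31 without WT replicate 1, against 0.0036 over 18994 genes. The groups did not overlap for 3 genes lower in KO (Ptgs1, Ptgis and Alox15) and for 1 higher (Hpgd), with or without that library. Such separation was met by 11.4% of tested genes in the lower and 11.4% in the higher direction with 6 libraries, and by 17.5% and 17.1% without WT replicate 1.

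No member passed an adjusted p of 0.05 with 6 libraries in edgeR, where 4 had an unadjusted p under 0.05 (Ptgis, Alox15, Hpgd and Ptges). Over all tested genes, 2092 of 18464 had such an unadjusted p, and 3380 of 18994 without WT replicate 1. Few genes passed the adjusted threshold with 6 libraries: 0.0542% of those tested, 0.0379% lower and 0.0162% higher. DESeq2 on the same libraries called 2 members lower, Ptgis (adjusted p = 0.00904) and Alox15 (0.0173). Over all 18464 genes it called 307 lower and 194 higher, many more than edgeR. In the 5 libraries without WT replicate 1, edgeR called 2 members lower (Ptgis and Alox15) and 0 higher, against 3.99% of all genes, 2.34% lower and 1.65% higher. WT replicate 1 held the highest value of 6 members, while it held the highest of 36.4% of tested genes. In whole tissue, fewer cells of a type and less RNA per cell cannot be told apart.

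**Figure D1:**
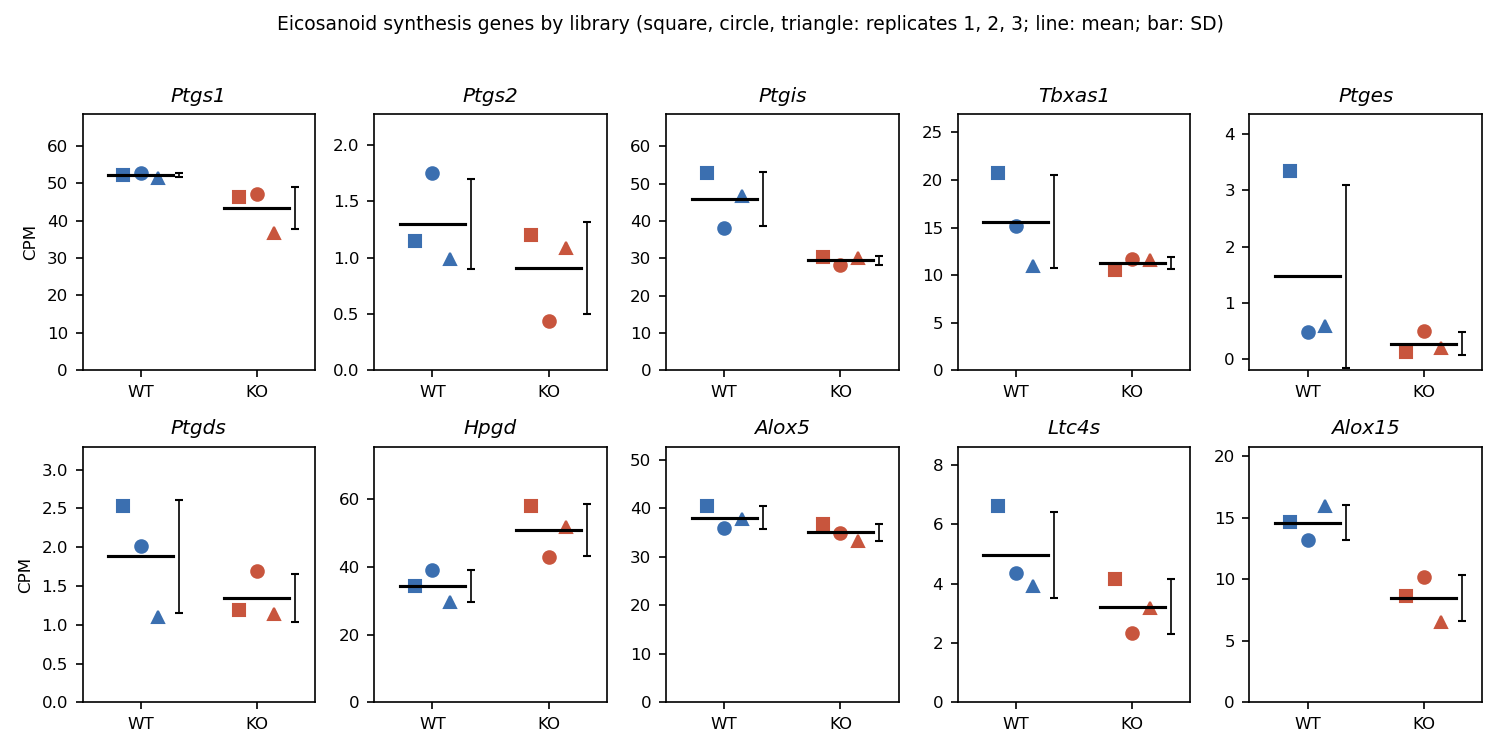
CPM of the 10 genes in each library, with WT in blue and KO in red. Squares, circles and triangles are replicates 1, 2 and 3, the line is the mean and the bar the SD; each panel has its own linear axis. Ptgs1, Ptgis and Alox15 lie lower in all KO libraries and Hpgd higher, and WT replicate 1 lies far above the rest for Ptges.

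The cyclooxygenases open the pathway. Ptgs1 (gene ID 24693, mRatBN7.2 chr3:19584015-19605589, plus strand) is the form present in most resting tissue, and Ptgs2 (gene ID 29527, chr13:62164080-62169770, plus strand) is the form that cytokines and injury induce. Per length, Ptgs1 stood far above Ptgs2: the ratio of their FPKM was 29.7, 19.6 and 33.9 in WT and 25.3, 69.6 and 22.2 in KO. The 250 bases before their annotated starts in RefSeq (assembly GRCr8) are shown because the pair differs in level, followed by those of Hpgd, the member that stood higher in KO. The windows are chr3:39981169-39981418 (plus), chr13:64713813-64714062 (plus) and chr16:39034832-39035081 (minus). Capitals mark matches on either strand to 5 motifs.
Ptgs1: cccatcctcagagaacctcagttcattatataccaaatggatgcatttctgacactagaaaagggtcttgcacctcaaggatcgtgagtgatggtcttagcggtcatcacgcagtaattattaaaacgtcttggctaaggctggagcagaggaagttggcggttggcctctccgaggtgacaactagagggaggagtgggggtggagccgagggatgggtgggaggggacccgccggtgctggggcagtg
Ptgs2: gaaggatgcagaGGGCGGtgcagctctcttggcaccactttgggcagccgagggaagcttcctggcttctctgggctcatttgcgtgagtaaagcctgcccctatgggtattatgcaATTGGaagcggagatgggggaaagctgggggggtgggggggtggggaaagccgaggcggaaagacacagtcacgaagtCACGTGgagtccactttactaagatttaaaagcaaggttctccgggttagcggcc
Hpgd: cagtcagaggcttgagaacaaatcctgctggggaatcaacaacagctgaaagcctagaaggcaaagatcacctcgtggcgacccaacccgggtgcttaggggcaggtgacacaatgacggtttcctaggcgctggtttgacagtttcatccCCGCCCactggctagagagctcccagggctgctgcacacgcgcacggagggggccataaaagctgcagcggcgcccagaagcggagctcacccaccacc
The TATA box was searched as TATAAA and the CCAAT box by the letters of its name. The GC box was searched as GGGCGG, and the E-box, a short palindrome, as CACGTG. The last of the motifs, the AP-1 site, was searched as TGANTCA. The Ptgs2 window held a GC box starting 238 bases before the start, a CCAAT box read on the reverse strand at 133 and an E-box at 55. The Hpgd window held a GC box on the reverse strand at 99, and the Ptgs1 window held none of the motifs. Promoter sequence was used for 8 members; those of Ptgis and Alox15 were not analysed here. Of those 8, 5 held a GC box, 2 a CCAAT box, and 1 each a TATA box, an E-box and an AP-1 site. Over all 33469 promoters of the table the shares were 30.47%, 34.02%, 12.93%, 5.59% and 6.34%. A match describes letters and shows no binding.

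Ptgs1 was measured at 52.3, 52.7 and 51.6 CPM in WT and at 46.4, 47.1 and 36.8 CPM in KO. The WT libraries hardly differed among themselves (52.2 ± 0.553, SD, n = 3), and all KO libraries lay below them (43.4 ± 5.74, SD, n = 3). The edgeR log2 fold change was -0.26 in both comparisons, with adjusted p = 0.449 for 6 libraries and 0.203 without WT replicate 1. Ptgs2 was near 1 CPM throughout: 1.15, 1.75 and 0.990 in WT and 1.20, 0.440 and 1.08 in KO. The groups overlapped (log2 fold change -0.51, 95% interval -1.59 to 0.57, edgeR adjusted p = 0.65).

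Ptgis (gene ID 25527, chr3:155928564-155964228, minus strand) encodes prostacyclin synthase. It was measured at 52.7, 38.2 and 46.7 CPM in WT and at 30.2, 28.1 and 30.2 CPM in KO. Every KO library was below every WT library, and the KO libraries lay close together (29.5 ± 1.21 against 45.9 ± 7.31, SD, n = 3 each). With 6 libraries the edgeR log2 fold change was -0.64 (SE 0.13, adjusted p = 0.21), a level 1.55-fold higher in WT. Leaving out WT replicate 1, Ptgis fell by 0.52 (log2; SE 0.094) with an edgeR adjusted p of 0.0145. That call was lost when WT replicate 3 (adjusted p = 0.0868) or KO replicate 2 (0.0812) was left out as well, and the sign stayed negative.

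Markers of cells that line lung surfaces and vessels were compared beside Ptgis. The summed FPKM of 11 mesothelial markers was 257 to 281 in WT and 175 to 195 in KO, and without WT replicate 1, 9 of 10 tested were lower in edgeR, among them Upk3b, Wt1 and Krt19. With 6 libraries none of the 10 passed in edgeR, and 9 had an unadjusted p under 0.05. The sum of 12 endothelial markers was 1817 to 2908 in WT and 1592 to 1722 in KO. Without WT replicate 1 the list was mixed: Cldn5 was called lower, and 7 of 12 log2 fold changes were below 0 and 5 above. Below 0 were also Emcn at -0.27, Esam at -0.20, Egfl7 at -0.17 and Cdh5 at -0.15 (edgeR adjusted p = 0.106 to 0.241). Above 0 were Kdr at 0.23, Tek at 0.18 and Tie1 at 0.17 (edgeR adjusted p = 0.169 to 0.245). For 11 fibroblast markers the sum was 1591 to 2584 in WT and 1273 to 1369 in KO, with 3 of 11 lower and 1 higher without WT replicate 1. Smooth muscle markers (9) summed to 1270 in WT replicate 1, to 571 and 692 in the other WT libraries and to 690 to 741 in KO. Without WT replicate 1 none of the 9 was called in edgeR, 7 had a log2 fold change above 0, and 4 of these (Tagln, Myh11, Actg2 and Acta2) had an unadjusted p under 0.05. Here and for the markers given below, their part in the member's result was not tested.

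Tbxas1 (gene ID 24886, chr4:67664963-67837096, plus strand) encodes thromboxane synthase, known from platelets and macrophages. Its values were 20.7, 15.2 and 10.9 CPM in WT and at 10.6, 11.6 and 11.6 CPM in KO. The WT libraries spread from the KO level upward, so the groups overlapped (log2 fold change -0.47, 95% interval -1.02 to 0.078, edgeR adjusted p = 0.486). WT replicate 1 was 1.58-fold above the mean of the other WT libraries, and without it the log2 fold change was -0.21 (adjusted p = 0.548). The summed FPKM of 10 platelet markers was 25.2 to 39.7 in WT and 14.2 to 19.9 in KO. Of 8 tested, Tubb1 and Treml1 were lower without WT replicate 1, while Ppbp and Gp1bb were too low to test.

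Ptges (gene ID 59103, chr3:14177892-14189236, minus strand) encodes the inducible microsomal synthase of prostaglandin E2. Values were 3.35, 0.482 and 0.589 CPM in WT and at 0.129, 0.503 and 0.191 CPM in KO, from 99, 16 and 22 counts and from 4, 16 and 6. WT replicate 1 alone was 6.25-fold above the mean of the other WT libraries, and KO replicate 2 lay among those. The edgeR log2 fold change was -2.39 with WT replicate 1 (SE 0.92, adjusted p = 0.406) and -0.95 without it (SE 0.68, adjusted p = 0.536).

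Ptgds (gene ID 25526, chr3:8281899-8284833, minus strand) encodes a prostaglandin D synthase that is also a secreted lipid carrier. The libraries gave 2.53, 2.02 and 1.10 CPM in WT and at 1.20, 1.70 and 1.15 CPM in KO. The groups overlapped, with a log2 fold change of -0.48 with 6 libraries (edgeR adjusted p = 0.62) and -0.20 without WT replicate 1 (adjusted p = 0.852). Leaving out WT replicate 2 also turned the sign for Ptgds (0.30) and for Tbxas1 (0.042), each from a comparison with WT replicate 3 alone.

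Hpgd (gene ID 79242, chr16:33986265-34024228, minus strand) encodes the dehydrogenase that oxidises prostaglandins to inactive products. It was measured at 34.4, 39.0 and 29.7 CPM in WT and at 58.0, 42.9 and 51.8 CPM in KO. Every KO library was above every WT library (50.9 ± 7.58 against 34.4 ± 4.68, SD, n = 3 each), with KO replicate 2 the nearest. The log2 fold change was 0.57 in both comparisons, a level 1.48-fold higher in KO. It did not pass edgeR's threshold with 6 libraries (SE 0.15, adjusted p = 0.276) and lay just above it without WT replicate 1 (SE 0.14, adjusted p = 0.0505). Over the alternatives of the latter comparison the adjusted p ran from 2.23e-06 to 0.244, and it passed in 5 of 15, among them DESeq2 (0.00118) and the fit without WT replicate 2 as well (0.0407).

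Beside Hpgd, the summed FPKM of 10 club and ciliated airway epithelial markers was 9072 to 11013 in WT and 12735 to 14535 in KO. Scgb1a1 and Scgb3a2, secretoglobins of club cells, were higher without WT replicate 1, and 8 of 10 tested had a log2 fold change above 0. For 9 type 2 alveolar markers the sum was 16693 to 27651 in WT and 14248 to 15326 in KO, with 2 of 9 lower without WT replicate 1. The 8 type 1 alveolar markers summed to 2963 to 3220 and 2772 to 3019, with none called in edgeR and 3 at an unadjusted p under 0.05.

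Alox5 (gene ID 25290, chr4:149531329-149578696, minus strand) is the lipoxygenase that starts leukotriene synthesis in myeloid cells. Alox5 stood at 40.5, 35.9 and 37.9 CPM in WT and at 36.8, 35.0 and 33.3 CPM in KO. The groups overlapped, and the interval was narrow: log2 fold change -0.12, 95% interval -0.35 to 0.11 (edgeR adjusted p = 0.622). Alox5ap, the membrane protein that presents the acid to Alox5, was described after its values were seen. It stood at 33.3, 32.3 and 27.8 FPKM in WT and at 29.6, 30.9 and 30.0 FPKM in KO, with a log2 fold change of -0.039 (95% interval -0.30 to 0.22), and 0.0079 without WT replicate 1.

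Ltc4s (gene ID 114097, chr10:34560476-34562790, minus strand) joins glutathione to leukotriene A4 and so opens the cysteinyl branch. Ltc4s stood at 6.62, 4.36 and 3.91 CPM in WT and at 4.17, 2.33 and 3.18 CPM in KO. KO replicate 1 lay between WT replicates 2 and 3, so the groups overlapped (log2 fold change -0.62, SE 0.31, edgeR adjusted p = 0.488). The log2 fold change without WT replicate 1 was -0.36 (adjusted p = 0.549). Mast cell markers (9), from a cell type known for cysteinyl leukotrienes, summed to 109 to 137 FPKM in WT and 130 to 143 in KO. Kit and Gata2, which other cells also express, held much of that sum (51.4 and 55.4 FPKM in WT replicate 1), and Kit was the only marker of the 9 called, higher without WT replicate 1. The mast cell proteases Mcpt2, Tpsab1 and Cpa3 then had log2 fold changes of -0.72, -0.44 and -0.30 (edgeR adjusted p = 0.136, 0.169 and 0.396). The proteases Cma1 and Tpsb2 were at -0.20 and 0.11. Hdc was at 0.61 (edgeR adjusted p = 0.0645), Ms4a2 at 0.17 and Gata2 at 0.0015. Of the 9 markers, 4 were below 0 and 5 above, so the list was mixed.

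Alox15 (gene ID 81639, chr10:55060169-55068885, minus strand) oxygenates arachidonic and linoleic acid outside the leukotriene route and is known from macrophages and eosinophils. It was measured at 14.7, 13.2 and 16.0 CPM in WT and at 8.63, 10.2 and 6.52 CPM in KO. Every KO library was below every WT library (8.46 ± 1.86 against 14.6 ± 1.40, SD, n = 3 each), and WT replicate 1 lay between the other WT libraries. With 6 libraries the edgeR log2 fold change was -0.79 (SE 0.20, adjusted p = 0.259), a level 1.73-fold higher in WT. Leaving out WT replicate 1, Alox15 fell by 0.78 (log2; SE 0.18) with an adjusted p of 0.0448. That call was lost when any further library was left out: WT replicate 2 (adjusted p = 0.09) or 3 (0.214), or KO replicate 1 (0.109), 2 (0.0565) or 3 (0.0819). The sign stayed negative in each.

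Beside Alox15, the summed FPKM of 9 alveolar macrophage markers was 198 to 420 in WT and 121 to 140 in KO. Fabp5, a fatty acid carrier that other cells also make, held most of that sum (56.4 to 325 FPKM), while Marco, a defining scavenger receptor, had at most 2 counts in any library. Without WT replicate 1, Fabp5 and Mrc1 were lower and Itgax higher, of 8 tested. Eosinophil markers (8) summed to 5.12 to 7.06 in WT and 6.46 to 6.75 in KO. Of their granule proteins, Prg3 was at 0 counts in all libraries and Epx reached at most 0.336 FPKM.

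**Figure D2:**
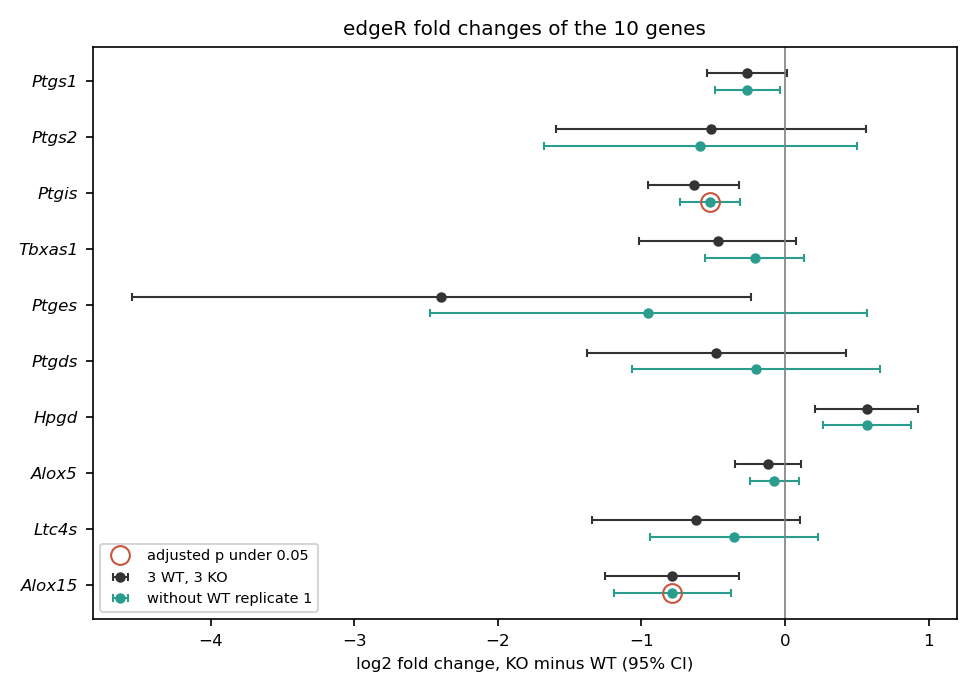
edgeR log2 fold changes (KO minus WT) of the 10 genes with 95% intervals, for all 6 libraries in black and without WT replicate 1 in green; red rings mark an adjusted p under 0.05. Ringed are Ptgis at -0.52 and Alox15 at -0.78 without WT replicate 1, and Ptges moves from -2.39 to -0.95 when that library is left out.

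Ordered by level per length (FPKM), Ptgis led in WT at 25.8 ± 4.27, followed by Hpgd at 20.4 ± 2.76 and Ptgs1 at 18.7 ± 0.250 (SD, n = 3 each). Alox5 came next at 13.7 ± 0.939, below every Ptgs1 value and above every Tbxas1 value. The other members had means of 4.14 (Tbxas1), 3.95 (Alox15), 3.39 (Ltc4s), 2.48 (Ptgds), 1.18 (Ptges) and 0.712 FPKM (Ptgs2), and each overlapped the next in this order. In KO, Hpgd led at 30.1 ± 4.54, above every value of Ptgis (16.5 ± 0.709), which overlapped Ptgs1 (15.5 ± 2.04). Then came Alox5 at 12.6 ± 0.637, which overlapped Ptgs1 but not Tbxas1 (2.97 ± 0.153). Tbxas1 lay above Alox15 (2.27 ± 0.496) without overlap, and Ptgds (1.76 ± 0.397) above Ptgs2 (0.496 ± 0.224). By means, the prostacyclin synthase led in WT and the prostaglandin dehydrogenase in KO, while the values of these genes overlapped in WT.

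Ratios of FPKM within a library do not depend on its scaling. They were chosen after the values were seen and are given with no test. Hpgd over Ptgis was 0.690, 1.08 and 0.672 in WT and 2.03, 1.62 and 1.82 in KO. The groups lay apart, and WT replicate 1 fell within the range of the other WT libraries. Hpgd over Ptgs1 was 1.09, 1.23 and 0.954 in WT and 2.07, 1.51 and 2.33 in KO, again apart. Hpgd by itself was higher in every KO library than in any WT library, and Ptgis and Ptgs1 were lower. Both separations follow from that and add nothing to it. Alox5 over Alox15 was 3.68, 3.63 and 3.16 in WT and 5.69, 4.56 and 6.81 in KO. The ranges of Alox5 and Alox15 within each group already fix this separation, so it adds nothing to the lower Alox15. Ptgis over Tbxas1, prostacyclin against thromboxane synthase, overlapped: 5.40, 5.33 and 9.04 in WT and 6.06, 5.12 and 5.54 in KO.

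**Figure D3:**
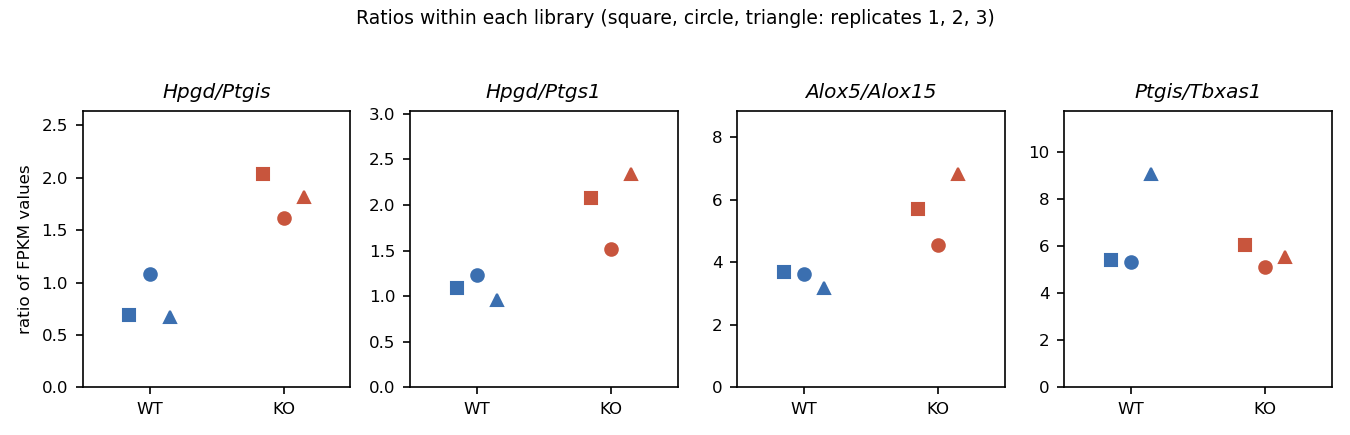
Ratios of FPKM between members within each library (linear axes from 0; squares, circles and triangles are replicates 1, 2 and 3). KO libraries lie above WT libraries for Hpgd/Ptgis, Hpgd/Ptgs1 and Alox5/Alox15. For Hpgd/Ptgis and Hpgd/Ptgs1 this follows from the single genes, which lie apart in opposite directions. For Alox5/Alox15 it follows from the ranges of the single genes, with Alox15 lower in all KO libraries and Alox5 overlapping. For Ptgis/Tbxas1 the groups overlap.

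The rest of the pathway was read from 6 lists of 75 symbols, of which 73 were in the table and 63 were tested. With 6 libraries none passed in edgeR, 11 had an unadjusted p under 0.05, and the median log2 fold change was -0.034. Over all tested genes, 2092 of 18464 had such an unadjusted p. Without WT replicate 1, 4 of the 63 were lower and 4 higher in edgeR, against 2.34% lower and 1.65% higher of all 18994 tested genes. These shares also stand beside the counts of called genes given below for single lists in that comparison. The lists were drawn up with earlier results of these libraries known, so their counts are a description.

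In the list for release and supply of arachidonic acid, 3 of 14 tested genes fell and 1 rose without WT replicate 1. The list mixes genes that free fatty acids with genes that bind them, so this count gives no direction of supply. Naaa, an amidase that frees fatty acids from ethanolamides, was measured at 284, 267 and 269 CPM in WT and at 167, 174 and 160 CPM in KO. All 3 KO libraries lay far below the WT range, and the log2 fold change was -0.71 with 6 libraries (edgeR adjusted p = 0.0867) and -0.69 without WT replicate 1 (0.000308). Pla2g2a, a secreted phospholipase A2, was measured at 56.9, 38.3 and 19.7 CPM in WT and at 3.04, 1.32 and 5.70 CPM in KO. This was the largest fold among the 63 tested genes, with a log2 fold change of -3.51 (adjusted p = 0.133) and, without WT replicate 1, -3.11 (0.0041). That call was lost in 3 of 15 alternatives, a robust fit (0.168) and limma on log2 FPKM with either pseudocount (0.0598 in each). Acsl4, which links arachidonate to coenzyme A, was at 62.6 CPM in WT replicate 1, at 125 and 138 in the other WT libraries and at 78.8 to 92.8 in KO. Its log2 fold change was -0.30 with 6 libraries (adjusted p = 0.65) and -0.58 without WT replicate 1 (0.00485), a call lost in 2 of 15 alternatives, both on log2 FPKM (0.0568 and 0.051). Pla2g4b, a cytosolic phospholipase, had a log2 fold change of 0.54 with 6 libraries (adjusted p = 0.258) and 0.47 without WT replicate 1 (0.0431). The latter call was lost in 8 of 15 alternatives, among them each further library left out. Pla2g4a, the cytosolic form best known for feeding cyclooxygenases, was added after its values were seen; its log2 fold change was -0.20 with 6 libraries (adjusted p = 0.598) and -0.26 without WT replicate 1 (0.327).

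Among 11 other tested genes of prostanoid synthesis, 3 rose and 0 fell without WT replicate 1. Akr1b8, an aldo-keto reductase, was measured at 9.60, 4.67 and 5.59 CPM in WT and at 17.4, 22.0 and 14.3 CPM in KO. The groups lay apart, with a log2 fold change of 1.44 with 6 libraries (edgeR adjusted p = 0.211) and 1.80 without WT replicate 1 (0.00122). Cbr1, a carbonyl reductase that can turn prostaglandin E2 into F2 alpha, was measured at 5.61, 4.67 and 3.42 CPM in WT and at 10.4, 10.6 and 7.16 CPM in KO. Its log2 fold change was 1.04 (adjusted p = 0.256) and, without WT replicate 1, 1.22 (0.0168), a call lost when WT replicate 3 (0.0985), KO replicate 1 (0.059) or KO replicate 2 (0.0845) was also left out. Cbr1 lies on chromosome 11, 4.071 Mb from Tmprss2. Akr1b1, an aldose reductase that also makes prostaglandin F2 alpha, was measured at 96.1, 65.7 and 60.4 CPM in WT and at 75.9, 98.4 and 81.2 CPM in KO. WT replicate 1 lay above 2 of the KO libraries, and the log2 fold change was 0.20 with 6 libraries (adjusted p = 0.666) and 0.44 without WT replicate 1 (0.0473). This call was lost without WT replicate 2 (0.118) or 3 (0.208) or KO replicate 2 (0.112) or 3 (0.0648). The Akr1b genes are near copies of each other, and the labels do not say how reads matching several places were counted.

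Of 13 other tested genes of leukotriene synthesis and lipoxygenases none passed in edgeR without WT replicate 1, and 2 had an unadjusted p under 0.05. Over all tested genes, 3380 of 18994 had such an unadjusted p there. Lta4h, the hydrolase that makes leukotriene B4, had a log2 fold change of -0.33 with 6 libraries (adjusted p = 0.377) and -0.23 without WT replicate 1 (0.124). Aloxe3, an epidermal lipoxygenase, stood at 6.99, 2.32 and 1.31 CPM in WT and 5.65, 3.84 and 3.79 CPM in KO. Its log2 fold change was 0.33 with WT replicate 1 (adjusted p = 0.805) and 1.29 without it (0.0503), and -0.072 when WT replicate 3 alone was left out. Mgst2, a glutathione transferase that can also make leukotriene C4, had -0.21 (adjusted p = 0.483) and -0.19 (0.314).

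Of 8 tested prostanoid receptors none passed in edgeR or had an unadjusted p under 0.05 in either comparison. The smallest p belonged to Ptgfr, the prostaglandin F receptor, with a log2 fold change of 0.37 (95% interval -0.10 to 0.85, adjusted p = 0.509) and 0.31 without WT replicate 1 (0.471). Ptgdr2, a prostaglandin D2 receptor of leukocytes, had 0.16 in both (adjusted p = 0.676 and 0.664). Of 6 leukotriene and related receptors none passed in edgeR; Cmklr1, a chemerin receptor that also binds resolvin E1, had the smallest p without WT replicate 1 (log2 fold change -0.20, adjusted p = 0.069, and 1 gene with an unadjusted p under 0.05). Gpr31, a receptor for hydroxylated arachidonic acid, had 5 to 26 counts per library and a log2 fold change of -0.88 with 6 libraries (adjusted p = 0.552).

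Among 11 tested genes of transport and breakdown, 1 fell without WT replicate 1. This was Abcc4, an exporter of prostaglandins, measured at 73.0, 49.9 and 52.6 CPM in WT and at 36.4, 42.8 and 41.2 CPM in KO. The groups did not overlap, and its log2 fold change was -0.54 with 6 libraries (edgeR adjusted p = 0.311) and -0.35 without WT replicate 1 (0.0412). That call was lost when any further library was left out (0.0806 to 0.161). Cyp4f18, a leukotriene B4 hydroxylase, had 1.01 with 6 libraries (adjusted p = 0.3) and 0.87 without WT replicate 1 (0.139). Slco2a1, the uptake carrier that works ahead of Hpgd, was described after its values were seen: 344, 210 and 185 FPKM in WT and 214, 191 and 207 FPKM in KO, overlapping in both comparisons. Its log2 fold change turned from -0.26 with 6 libraries (adjusted p = 0.631) to 0.048 (95% interval -0.11 to 0.20) without WT replicate 1.

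**Figure D4:**
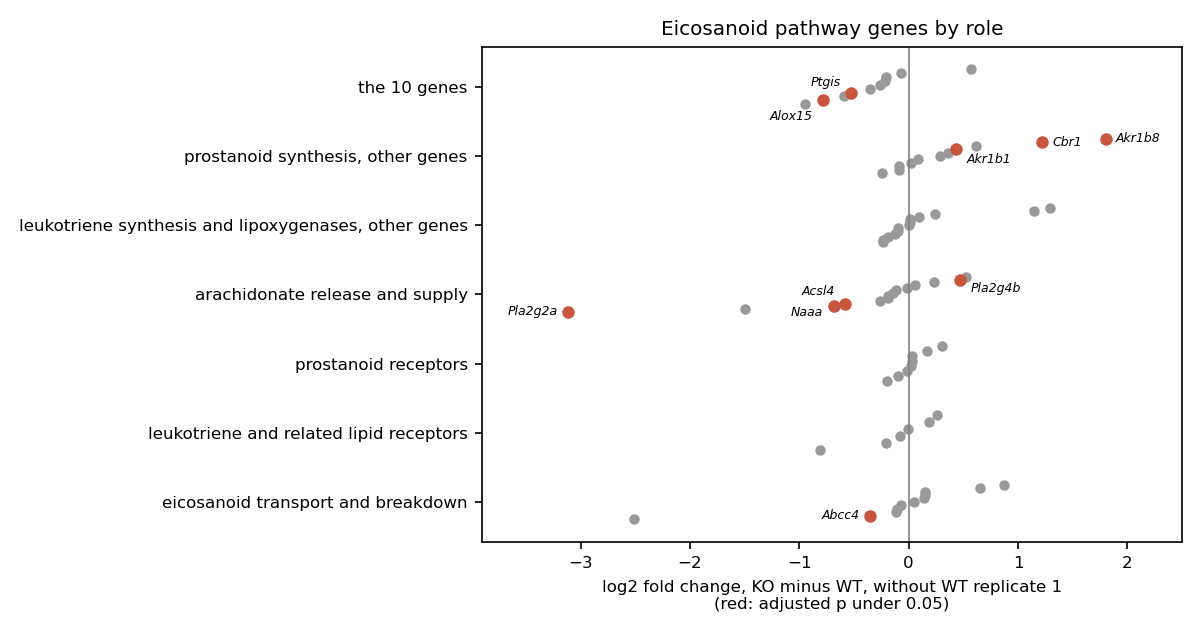
edgeR log2 fold changes (KO minus WT) without WT replicate 1 for the 10 genes and the 6 other lists of the pathway, 1 point a tested gene, with vertical offsets only to separate points. Red points, named, have an adjusted p under 0.05: Ptgis, Alox15, Naaa, Pla2g2a, Acsl4 and Abcc4 to the left, and Akr1b8, Cbr1, Akr1b1 and Pla2g4b to the right.

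The 10 genes lie on 5 chromosomes. Chromosome 3 holds 4 of them (Ptgds, Ptges, Ptgs1 and Ptgis), where 7.34% of the genes in the table lie, and none is on chromosome 11 with Tmprss2. The authors' deposited table of 192 genes that differ between the genotypes lists 0 of the 10. Of the pathway genes, the authors' deposited table lists 3: Pla2g2a at a log2 fold change of -3.52, Akr1b8 at 1.43 and Cbr1 at 1.04. All 3 are larger in size than the 6-library edgeR values of Ptgis (-0.64) and Alox15 (-0.79). Whether a cutoff on fold size kept genes out of that table was not tested, so absence from it need not mean that the authors' test missed a gene.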

How the data were processed

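Lung messenger RNA of 3 WT and 3 KO rats was sequenced as paired reads after poly-T selection, per the labels' protocols, in 1 batch. The authors deposited raw counts per gene and FPKM values, and a table of their own comparison, which gives a log2 fold change and p-value per gene. The signal columns in that deposited table are the authors' counts divided by 1 size factor per library. Tools named without roles, per the submitters' processing notes, were DESeq2 1.42.0, featureCounts 2.0.6, HISAT2 2.2.1 and StringTie 2.2.3, on mRatBN7.2. Strand handling is not given in the sources used here, so antisense reads cannot be told apart. Even counts outnumbered odd ones among low genes (3171 against 1641 in WT replicate 1, for counts up to 10), so each read of a pair appears to be counted. The FPKM values were checked to be the count over length and a library size, and Ptges and Ptgs2 had the lowest mean CPM of the members, so counting error weighs most on them.

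Counts were fitted in edgeR 4.0.16 (R 4.3.3) with TMM, filterByExpr (minimum count 10, total 15), glmQLFit and glmQLFTest on genotype, Benjamini-Hochberg adjustment over all tested genes and a threshold of 0.05. All 10 members passed the filter in both comparisons. Standard errors are the log2 fold change over the square root of F. CPM uses TMM library sizes. Scripts were tested on simulated data. Named were all members and, from each pathway list, every gene past the threshold and, per comparison, 2 genes by smallest p. Other genes of the pathway are said to be chosen after their values were seen. Cell type markers were not named by this rule, and some were named with their results known. The members and lists were chosen with earlier results of these data known. Alternatives were RLE and upper quartile scaling, DESeq2 1.42.0, limma-voom (limma 3.58.1), limma on log2(FPKM + 1) and log2(FPKM + 0.1), other filters, a robust fit, a replicate block and each library left out. Promoter sequence was taken from RefSeq (GRCr8), whose coordinates were not mixed with those of the count table.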

Additional observations from a re-analysis of the deposited data

How the results depend on the processing

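Members called in KO were counted again under each alternative. With 6 libraries 0 were lower; DESeq2 gave 2, and leaving out 1 library gave 0 to 2, the 2 without WT replicate 1. Without WT replicate 1, 2 were lower and 0 higher. Lower counts became 1 with upper quartile scaling, 0 with limma on log2(FPKM + 1), 0 with limma on log2(FPKM + 0.1) and 1 with a replicate block, and ran from 0 to 1 when a further library was left out. Higher counts, all Hpgd, became 1 with upper quartile scaling, 1 with DESeq2, 1 with limma-voom and 1 with no filter (where Ptgs1 was also called lower, at an adjusted p of 0.0434), and ran from 0 to 1 when a further library was left out. With WT replicate 2 or 3 also left out, 1 WT library remains and is assumed to vary like the KO group. A minimum count of 50 gave no value for Ptgs2, Ptges and Gpr31, which it removes. The cause of the other shifts was not tested.

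Among the members and the pathway genes named by rule, signs turned for 3: Ptgds ran from -0.58 to 0.30 and Tbxas1 from -0.43 to 0.042 over the further libraries left out, and Aloxe3 from -0.072 to 1.29 over single libraries left out of the 6. The others of these kept their sign. Of 3 genes named after their values were seen, 2 turned without WT replicate 1, Slco2a1 (-0.26 to 0.048) and Alox5ap (-0.039 to 0.0079); Pla2g4a did not, and other alternatives were not run for them. Over all genes, edgeR called 7 lower and 3 higher with 6 libraries, DESeq2 307 and 194, limma on log2(FPKM + 0.1) 11 lower, and single libraries left out, other than WT replicate 1, 1 to 6 and 0 to 1. Without WT replicate 1 the counts of 444 and 314 became 953 and 754 with no filter, 113 and 67 or 140 and 96 with limma on FPKM, 520 higher with DESeq2, and 141 to 324 lower and 92 to 198 higher with a further library left out.

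No pairing by replicate number was seen: deviations of same-numbered libraries correlated at -0.081, 0.027 and -0.085, and those of other pairs at -0.11 to 0.12. With so few libraries and WT replicate 1 standing apart, this cannot show that the samples were unpaired. With the replicate block, edgeR called 2 genes lower and 0 higher with 6 libraries, and without WT replicate 1 it called 323 and 257, with Alox15 at an adjusted p of 0.075. No other scaling moved the median log2 fold change of all genes beyond 0.044.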

Other observations

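The cytochrome P450 4f genes, some of which hydroxylate leukotriene B4 and other eicosanoids, were looked at after their values were seen. Cyp4f5 (mRatBN7.2 chr7:11544040-11558982) had 590, 534 and 512 counts in WT, 0 counts in KO replicates 1 and 2, and 246 in KO replicate 3. Its WT mean of 16.6 ± 3.15 CPM (SD, n = 3) was at least 171-fold and at least 176-fold higher than in KO replicates 1 and 2, against a floor of 3 counts per library, and 2.12-fold higher than in KO replicate 3. The edgeR test did not call it with 6 libraries (adjusted p = 0.522) or without WT replicate 1 (0.265). Its neighbour Cyp4f17 (chr7:11518985-11536208) went the other way, with 179, 291 and 360 counts in WT and 499, 604 and 456 in KO, a log2 fold change of 1.02 (adjusted p = 0.204) and, without WT replicate 1, 0.85 (0.0117). Cyp4f37 (chr7:11572573-11595063), the next of the family, had 3 counts in each WT library and 10, 22 and 14 in KO. Cyp4f6, at 41.0 to 53.5 CPM in all libraries, had a log2 fold change of -0.19 (adjusted p = 0.522). These genes are close copies, so reads could be split between them.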
